A study of Mus musculus with 8 samples.

Results

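The 9 genes Col4a1, Col4a2, Lama1, Lamb1, Lamc1, Nid1, Hspg2, Sparc and Serpinh1 encode components of basement membranes and proteins that handle their collagen. All 9 had values, out of 17488 genes with values and 48321 genes listed. They were chosen by name as known basement membrane genes, with results of all 4 comparisons described here in view. Which values weighed in that choice is not recorded, so every comparison is treated as used in it. For these 9 genes the values, the changes and the calls are therefore a description, no p-value is printed for them, and nothing is supported with them.

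A basement membrane is a thin sheet of matrix on which epithelial cells rest. It is built from a network of laminin trimers and a network of collagen IV, which nidogen and the proteoglycan perlecan link to each other. A laminin of the early mouse embryo is assembled from the α1, β1 and γ1 chains, and the embryo's collagen IV from the α1 and α2 chains. Endoderm of the early embryo, above all parietal endoderm, is known as a rich source of these proteins, and embryonic stem cells also make them.

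The study sequenced RNA of E14 cells, a mouse embryonic stem cell line of strain 129/Ola, in 8 libraries. The GSK3α line is a GSK3α knock-out with a transgene for the mutant kinase GSK3α-L195G. The GSK3β line is a GSK3β knock-out with a transgene for GSK3β-L132G. Mutations of this analog-sensitive kind enlarge the site where the kinase binds ATP, so that a bulky ATP analog such as 3MB-PP1 can enter and block it. All cells were kept without serum for 6 h in the defined medium N2B27, and 3MB-PP1 at 5 µM was then added for 2 h or left out, with 2 libraries in each of the 4 groups. Each paralog is represented by 1 line, the labels name neither a vehicle for the untreated cells nor a line without a mutant kinase, and the promoter of the transgenes is not given in the sources used here. The labels do not say that the replicates were separate cultures, so the spread between libraries may be technical.

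The libraries held an estimated 21.5 to 32.4 M reads on genes. Gsk3a was at 141 to 160 in the GSK3α line and at 76.2 to 79.9 in the GSK3β line, and Gsk3b at 52.7 to 58.2 and at 235 to 258, so each kinase gene was higher in the line that carries its transgene. The 14 embryonic stem cell markers listed were all tested, and their summed value was 7342 to 7572 over the 8 libraries. Single markers differed between the untreated lines, with 4 of the 14 called higher in GSK3β cells and 8 lower. Of all tested genes, 22.3% were called higher and 25.9% lower. Among the markers called lower were Dppa3 (-1.17 on the log2 scale), Zfp42 (-0.38) and Lin28a (-0.29).

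Col4a1 and Col4a2 are shown first with their start sites because they lie head to head and share a promoter region. On the mouse genome mm10, Col4a1 covers 11198423 to 11312826 of chromosome 8 on the minus strand and Col4a2 covers 11312805 to 11449287 on the plus strand. Their first exons share 22 bases on opposite strands. Reads in those bases cannot be assigned to 1 of the genes unless counting used the strand, which is not given in the sources used here. Nid1, on chromosome 13 from 13437551 to 13512269, is printed beside them as the member in the promoter table with the next largest change in the GSK3β line. The windows are RefSeq promoters on GRCm38.p6, from 250 bases before the start site to 50 after it, each printed along its own gene. They span chr8:11312777-11313076 for Col4a1 (minus strand), chr8:11312555-11312854 for Col4a2 (plus strand) and chr13:13437352-13437651 for Nid1 (plus strand). Capitals mark the CCAAT box motif CCAAT and the GC box motif GGGCGG, on either strand.

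Col4a1: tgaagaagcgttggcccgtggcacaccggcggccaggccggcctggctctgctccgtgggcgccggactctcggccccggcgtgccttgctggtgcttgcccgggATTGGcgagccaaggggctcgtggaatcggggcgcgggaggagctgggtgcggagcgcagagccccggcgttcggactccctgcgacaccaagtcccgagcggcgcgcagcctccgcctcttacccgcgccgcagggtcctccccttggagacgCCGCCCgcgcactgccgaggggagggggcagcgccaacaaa
Col4a2: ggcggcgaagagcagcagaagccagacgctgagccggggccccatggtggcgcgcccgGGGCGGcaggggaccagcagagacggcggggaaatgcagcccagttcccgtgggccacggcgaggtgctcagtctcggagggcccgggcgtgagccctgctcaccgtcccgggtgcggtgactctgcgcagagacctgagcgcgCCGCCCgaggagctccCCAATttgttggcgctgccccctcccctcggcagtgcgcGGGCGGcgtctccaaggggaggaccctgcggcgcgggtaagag
Nid1: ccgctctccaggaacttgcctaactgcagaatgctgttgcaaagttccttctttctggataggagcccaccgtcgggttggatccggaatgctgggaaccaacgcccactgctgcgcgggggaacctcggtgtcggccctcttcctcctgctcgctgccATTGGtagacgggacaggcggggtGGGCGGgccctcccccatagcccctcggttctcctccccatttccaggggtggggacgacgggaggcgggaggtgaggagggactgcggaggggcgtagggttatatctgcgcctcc

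The Col4a1 and Col4a2 windows overlap by 78 bases, so part of each sequence is the complement of the other. Of the 9 genes, 7 were matched by symbol in the RefSeq promoter table, all but Lama1 and Lamc1. CCAAT was found in 4 of the 7 windows (Col4a1, Col4a2, Lamb1 and Nid1), and it was found in 37.4% of all 32851 promoters of the same length. GGGCGG was found in 6 of the 7, all but Sparc, and in 35.7% of all promoters. The Col4a1 match at +9 from its start site and the Col4a2 match at +7 are the same bases, where the windows overlap. TATAAA (13.6% of all promoters), AGATAA (11.2%), TGATAA (9.05%), CTTTGAT (3.73%), ATTGTT (10.7%) and GAANNTTC (7.86%) were searched on both strands and were in none of the 7. A match is a description of letters and not a binding site.

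The values below are the authors' scaled gene counts. They are not divided by gene length, so levels were compared between genes only after division by the exon length in kb. Per kb, Sparc stood highest, with a mean of 70.7 over the 8 libraries, above 95.2% of 13515 genes with a length. Sparc encodes a secreted collagen-binding protein. Lamc1 followed at 38.1 per kb, Serpinh1 at 36.0, Nid1 at 29.8 and Col4a1 at 27.9. Col4a2 was at 10.1 per kb, Hspg2 at 9.80, Lamb1 at 7.84 and Lama1 at 2.74, and the median of all genes was 4.92. The lowest Sparc library, at 61.9 per kb, was above the highest library of every other member, the next being Lamc1 at 51.8. The ranges of Lamc1, Serpinh1, Nid1 and Col4a1 overlapped over the libraries, and so did those of Col4a2, Hspg2 and Lamb1. Lama1, at 1.88 to 3.19 per kb, did not reach the lowest library of Lamb1 at 6.93. The other loci on mm10 are 17:67697259-67822647 for Lama1, 12:31265234-31329644 for Lamb1 and 1:153218922-153332786 for Lamc1. Hspg2 lies at 4:137468769-137570630, Sparc at 11:55394500-55423183 and Serpinh1 at 7:99345376-99353239. Even Lama1 rested on at least 480 estimated reads in each library.

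Treatment of the GSK3β line with 3MB-PP1 was followed by higher values of 8 of the 9 genes, and treatment of the GSK3α line by no call in any of them. Of all tested genes, 7.49% were called higher and 7.44% lower in the GSK3β line, and 0.265% and 0.616% in the GSK3α line. The question addressed is how the acute block of each kinase changes expression. Changes are given on the scale log2(value + 1), as inhibitor minus untreated within a line, with the SE of the limma fit over all 8 libraries. A gene was called higher or lower at a Benjamini-Hochberg adjusted p under 0.05 over the 13959 genes tested.

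In the fit over all 8 libraries the collagen IV chains had the largest changes of the 9. Lama1 (0.56 in the GSK3β line) lay close to Col4a1, and the untreated GSK3β libraries of both collagen genes differed, so this order is not resolved. Col4a2, the α2 chain, was at 49.3 and 63.3 in the untreated GSK3β libraries and at 97.2 and 89.3 with the inhibitor. GSK3α cells had Col4a2 at 57.2 and 60.2 untreated and at 59.4 and 57.6 with the inhibitor. The treated GSK3β libraries thus stood above the other 6, which ran from 49.3 to 63.3. The log2 change of Col4a2 was 0.73 ± 0.07 in the GSK3β line, a fold of 1.66, and -0.01 in the GSK3α line, with a 95% interval from -0.16 to 0.15. Col4a1, the α1 chain, was at 154 and 182 in the untreated GSK3β libraries and at 269 and 245 with the inhibitor. Values in GSK3α cells were 204 and 206 untreated, then 205 and 201 with the inhibitor. For Col4a1 the untreated GSK3β libraries were the lowest of the 8 and the treated ones the highest. Its log2 change was 0.61 ± 0.05 in the GSK3β line, 1.53-fold, and -0.02 in the GSK3α line, with an interval from -0.13 to 0.10.

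The common collagen IV trimer holds more α1 than α2 chains. Per kb, Col4a1 stood above Col4a2 in every library, at a ratio of 3.10 ± 0.0785 (SD, n = 2) in the untreated GSK3α group and 3.07 ± 0.0272 with the inhibitor. In the GSK3β line the ratio was 2.66 ± 0.167 untreated and 2.45 ± 0.0174 with the inhibitor. The ratios of the 4 GSK3β libraries lay below those of the 4 GSK3α libraries.

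**Figure D1:**
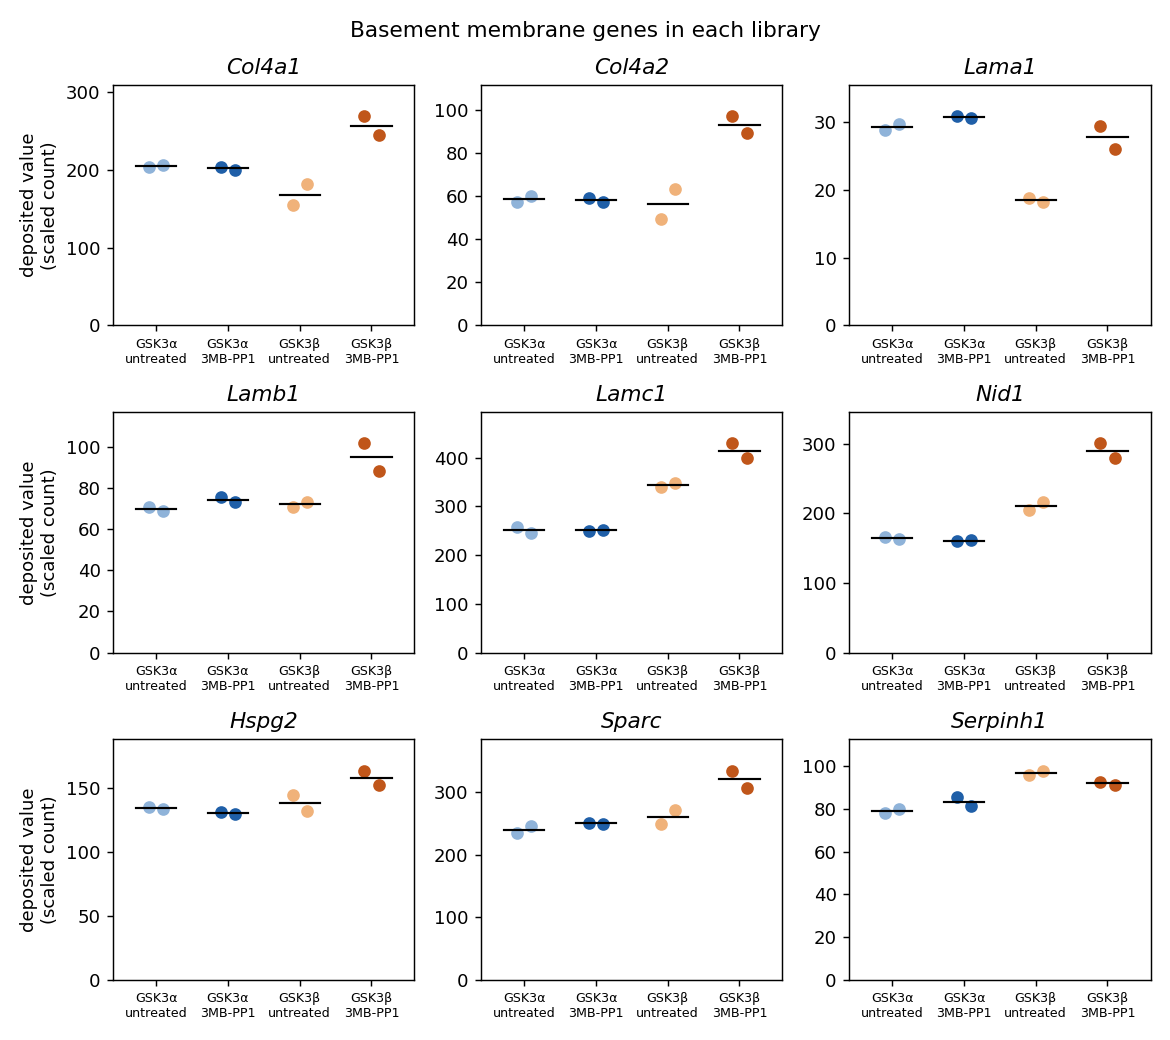
Deposited value (scaled count, linear axis from 0) of each gene in each of the 8 libraries, by line and treatment. Points are libraries and bars are means of 2. In the treated GSK3β group Col4a1, Col4a2, Lamb1, Lamc1, Nid1, Hspg2 and Sparc lie above all 6 other libraries, both Lama1 libraries lie above the untreated GSK3β libraries but not above all GSK3α libraries, and both Serpinh1 libraries lie below the untreated GSK3β ones.

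The laminin chains differed in where they started. Lama1, the α1 chain by which the trimer binds cells, was at 18.8 and 18.2 in the untreated GSK3β libraries and at 29.5 and 26.1 with the inhibitor. Its GSK3α libraries were at 28.8 and 29.7 untreated and at 30.9 and 30.6 with the inhibitor. Of the treated GSK3β libraries, 1 thus lay within the GSK3α range of 28.8 to 30.9 and 1 below it. The log2 change of Lama1 was 0.56 ± 0.06 in the GSK3β line, 1.47-fold on that scale, against 0.07 in the GSK3α line.

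Lamb1, the β1 chain, was at 70.8 and 73.2 in the untreated GSK3β libraries and at 102 and 88.4 with the inhibitor. GSK3α cells had Lamb1 at 70.7 and 68.7 untreated and at 75.4 and 73.3 with the inhibitor. The log2 change was 0.39 ± 0.05 in the GSK3β line and 0.09 in the GSK3α line, with an interval from -0.01 to 0.19. Lamb1 therefore rose from a level that the lines shared. Lamc1, the γ1 chain found in most laminins, was at 340 and 348 in the untreated GSK3β libraries and at 429 and 399 with the inhibitor. Values in GSK3α cells were 257 and 245 untreated, then 249 and 252 with the inhibitor. All 4 GSK3β libraries of Lamc1 were above all 4 GSK3α libraries, and its log2 change was 0.26 ± 0.03 in the GSK3β line and 0.00 in the GSK3α line.

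These starting points gave the lines different chain ratios. Per kb, Lamc1 stood 10.04 ± 0.543 times (SD, n = 2) above Lama1 in untreated GSK3α cells and 21.8 ± 0.827 times above it in untreated GSK3β cells. With the inhibitor the ratio was 9.56 ± 0.137 in the GSK3α line and 17.5 ± 0.622 in the GSK3β line. The 2 ratios of the treated GSK3β group were below those of the untreated one and above those of every GSK3α library. Lama5, the α chain of another laminin, was also expressed, at 117 to 135 over the 8 libraries in values not divided by length. The ratio of Lamc1 to Lama1 is therefore not that of the γ1 chain to all α chains.

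Nid1 encodes nidogen-1, which binds the laminin γ1 chain and collagen IV. It was at 204 and 217 in the untreated GSK3β libraries and at 301 and 280 with the inhibitor, a log2 change of 0.46 ± 0.04, or 1.38-fold. GSK3α cells had Nid1 at 167 and 163 untreated and at 161 and 161 with the inhibitor, a change of -0.03. The libraries of the treated GSK3β group were above the untreated ones, and all GSK3β libraries were above all GSK3α libraries. Hspg2 encodes perlecan, a heparan sulfate proteoglycan that binds laminin and nidogen. It was at 145 and 132 in the untreated GSK3β libraries and at 163 and 152 with the inhibitor, against 135 and 133, then 131 and 130, in the GSK3α line. The log2 change of Hspg2 was 0.19 ± 0.04 in the GSK3β line and -0.04 in the GSK3α line. Without replicate 1 of the treated GSK3β group the change of Hspg2 was 0.14 and was no longer called.

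Sparc was at 249 and 271 in the untreated GSK3β libraries and at 335 and 308 with the inhibitor, a log2 change of 0.30 ± 0.04. GSK3α cells had Sparc at 234 and 246 untreated and at 251 and 250 with the inhibitor, a change of 0.06. Serpinh1, the collagen chaperone HSP47 of the endoplasmic reticulum, was the exception among the 9. It was at 96.1 and 98.0 in the untreated GSK3β libraries and at 92.9 and 91.2 with the inhibitor, which is a change of -0.08 with an interval from -0.15 to 0.00 and no call. GSK3α cells had Serpinh1 at 78.1 and 80.0 untreated and at 85.5 and 81.3 with the inhibitor, a change of 0.08 with no call either.

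**Figure D2:**
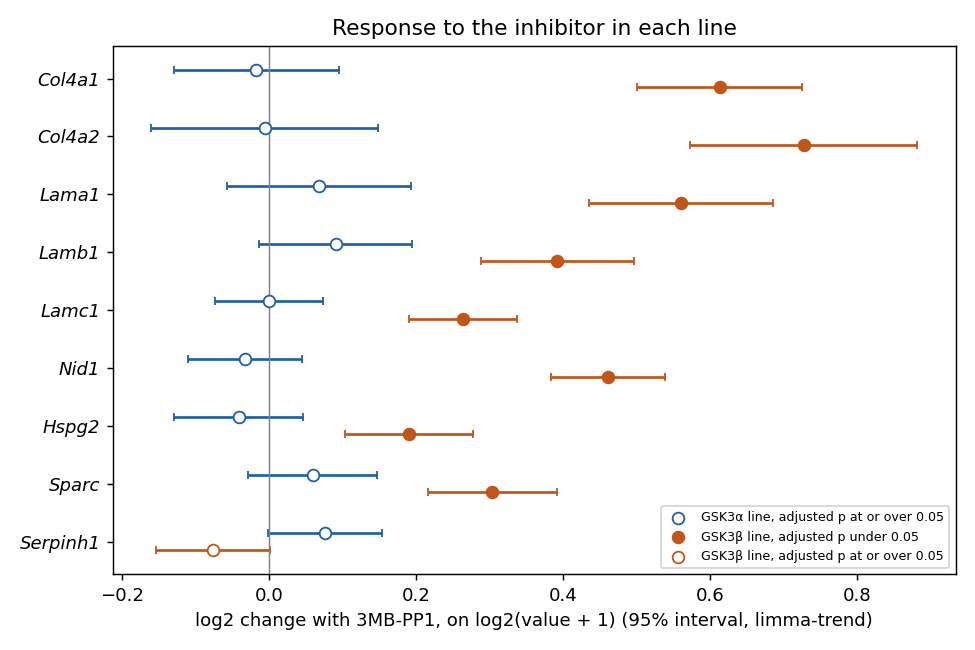
Log2 change with 3MB-PP1 for each of the 9 genes in the GSK3α line (blue) and in the GSK3β line (orange), with 95% intervals from limma-trend over all 8 libraries. Filled points passed the adjusted threshold. The GSK3β points run from -0.08 for Serpinh1 to 0.73 for Col4a2, and the GSK3α intervals reach 0.

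In the GSK3β line 8 of the 9 genes were thus called higher and 0 lower. Their median log2 change was 0.39, and that of all genes was -0.01. Of the 9, 0 were called in the GSK3α line. There, 0 of the 9 passed at an unadjusted p under 0.05 with limma-trend, 0 were called with voom on estimated reads, and their median change was 0.00. Since these comparisons are among those the choice of genes is treated as having used, nothing is read from these counts.

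The response of the GSK3β line minus that of the GSK3α line was fitted as a difference of changes. It was called higher for 8 of the 9 genes and lower for 0, where 3.62% of all genes were called higher and 2.9% lower. The difference was 0.73 ± 0.10 for Col4a2, 0.63 ± 0.08 for Col4a1, 0.49 ± 0.05 for Nid1 and 0.49 ± 0.08 for Lama1 on the log2 scale. For the other called members it was 0.30 ± 0.07 (Lamb1), 0.26 ± 0.05 (Lamc1), 0.24 ± 0.06 (Sparc) and 0.23 ± 0.06 (Hspg2). Serpinh1 had a difference of -0.15 ± 0.05 that did not pass. When 1 library was left out in turn, between 5 and 8 of the 9 were called. Hspg2 and Sparc each lost the call in 5 of these fits, and Lamb1 in 2. The difference is the change in the GSK3β line minus that in the GSK3α line, from the same libraries, so these values are not separate evidence.

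The 2 libraries of the treated GSK3β group differed in 1 direction across the 9 genes. All 9 were higher in replicate 1 than in replicate 2, with a median difference of 0.12 log2, while 50.2% of all tested genes were. In the untreated GSK3β group 2 of the 9 were higher in replicate 1, and the differences ran from -0.36 for Col4a2 to 0.13 for Hspg2. GSK3α replicates lay closer: 4 of the 9 were higher in replicate 1 untreated and 7 of the 9 with the inhibitor, with medians of -0.02 and 0.02. The summed value of the 9 genes was 1232 in both untreated GSK3α libraries and 1236 and 1249 in the treated ones. It was 1327 and 1402 in the untreated GSK3β libraries and 1678 and 1818 in the treated ones, so the groups of that line did not overlap.

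Before treatment the lines already differed in most of these genes, and not in 1 direction. Of the 9, 4 were called higher in untreated GSK3β than in untreated GSK3α cells and 2 lower, where 22.3% of all genes were called higher and 25.9% lower. Calls between the untreated lines were thus common over all genes, and these counts are not read as a result about the 9. Lamc1 was higher by 0.46 ± 0.03, Nid1 by 0.35 ± 0.04, Serpinh1 by 0.29 ± 0.04 and Sparc by 0.11 ± 0.04 on the log2 scale. Lama1 was lower, at -0.63 ± 0.06, and so was Col4a1, at -0.29 ± 0.05. Col4a2 (-0.07), Lamb1 (0.05) and Hspg2 (0.04) did not pass. Sparc lost its call without untreated GSK3α replicate 1 (0.08), without untreated GSK3β replicate 2 (0.05) and in a fit of only the 4 untreated libraries. Col4a2 was called lower, at -0.25, without untreated GSK3β replicate 2. Each kinase is represented by 1 line, so the mutant kinase and other differences between the lines cannot be told apart.

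Other matrix lists, except interstitial matrix, also held calls in both directions between the untreated lines. Interstitial matrix had 3 of 8 called higher and 0 lower, where 22.3% of all genes were called higher and 25.9% lower. Of the other basement membrane components, 5 were higher in GSK3β cells and 3 lower, among them Agrn (-0.54), Col18a1 (0.37) and Npnt (0.37). Receptors and linkers had 10 higher and 7 lower, among them Ddr2 (0.86), Sdc4 (-0.82), Sdc3 (0.69) and Itgb4 (-0.65). Collagen processing had 7 higher and 8 lower, with Fkbp14 at -0.74, Pxdn at 0.66, Fkbp10 at 0.47 and P3h4 at 0.46. Turnover had 7 higher and 2 lower, with Timp3 at 0.87, Ctsl at 0.82 and Htra1 at 0.76. Between the same untreated groups, summed markers of fibroblasts and mesenchyme were 227 to 253 in GSK3α and 311 to 315 in GSK3β cells. Most of that sum was Vim alone, at 189 and 216 in GSK3α and at 268 and 259 in GSK3β cells. Of the 8 tested, 5 were called higher and 0 lower. Summed endoderm markers were 27.5 to 29.3 in GSK3α and 26.3 to 27.7 in GSK3β cells. Single endoderm markers differed, with 1 of 8 called higher in GSK3β cells and 2 lower, among the lower Gata4 (-0.33). Summed trophoblast markers were 66.6 to 67.0 in GSK3α and 79.7 to 81.5 in GSK3β cells, with 3 of 8 called higher and 1 lower. Their part in these differences was not tested.

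Lists of other matrix genes were set beside the 9. They too were chosen with earlier results of these data known. In bulk RNA a change in the number of cells of a type and a change in RNA per cell cannot be told apart. Of 25 other basement membrane components, 21 had values and 14 were tested. Over all tested genes, 7.49% were called higher in the GSK3β line and 7.44% lower, and 3.62% and 2.9% for the difference. In the GSK3β line 5 of the 14 rose with the inhibitor and 0 fell, with a median log2 change of 0.12. Among them were Nid2, the second nidogen (0.30 ± 0.05, limma adjusted p = 0.000160), Ntn1, a netrin (0.22), Lamb2, a laminin β chain (0.20), and Agrn, the proteoglycan agrin (0.16). Nid2 was at 342 and 394 untreated and at 465 and 439 with the inhibitor in that line, and at 389 to 404 over the GSK3α libraries. The Nid2 libraries of the treated GSK3β group were above all others. Without untreated GSK3β replicate 1 only 1 of the 5 calls was made, and without treated GSK3β replicate 1 there were 3. Nid2 was called in all 15 alternatives. The difference of the responses was called for Nid2 (0.33 ± 0.06, limma adjusted p = 0.00447) and for Lama5, the α chain of another laminin (0.18, limma adjusted p = 0.0386). The Lama5 difference lost its call in 6 of the 8 fits with a library left out, and that of Nid2 in none of the 14 alternatives. In the GSK3α line 0 of the 14 were called, with 1 at an unadjusted p under 0.05 and 0 with voom.

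Receptors and linkers, through which cells hold the membrane, had calls both ways, at counts not read as a result about the list. Of all tested genes, 7.49% were called higher in the GSK3β line and 7.44% lower. Of 22 tested, 3 rose in the GSK3β line, Ddr2 (0.38), Itgb3 (0.34) and Itga9 (0.24), and 3 fell, Ddr1 (-0.23), Bcam (-0.22) and Dag1 (-0.16), with a median of 0.02. Ddr1 and Ddr2 are collagen receptors, Itgb3 and Itga9 are integrin chains, Bcam binds laminin α5 and Dag1 is dystroglycan, a laminin receptor. The integrin chain Itgb1, shared by most laminin and collagen integrins, had a change of 0.07 that did not pass. Ddr2 and Itgb3 lost their calls without untreated or treated GSK3β replicate 1, Itgb3 also without treated replicate 2, and Ddr1 and Dag1 without treated replicate 1. The difference of the responses was called for Itga9 (0.29), Ddr1 (-0.27) and Bcam (-0.22), where 3.62% of all genes were called higher and 2.9% lower. Each of these genes lost the call in 3 to 5 fits with a library left out.

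Collagen IV is hydroxylated, glycosylated and folded in the endoplasmic reticulum before export. Of 22 tested genes for collagen processing and export, 2 rose in the GSK3β line and 0 fell, with a median of 0.04. A count of 2 in 22 is near the 7.49% of all genes called higher and is not a result about the list. Colgalt1, a collagen galactosyltransferase, rose by 0.24 ± 0.04 (limma adjusted p = 0.000322), from 142 and 158 to 180 and 174. Creb3l2, a transcription factor of the secretory pathway, rose by 0.44 from a low level, 6.72 and 7.12, to 10.5 and 9.02, and the call was lost without treated GSK3β replicate 1. The prolyl hydroxylase subunit P4hb (0.05), the lysyl hydroxylases Plod1 (0.08) and Plod3 (0.12), and Pxdn (-0.10), which crosslinks collagen IV, did not pass. Of the 22, 20 did not pass, and neither did Serpinh1. The difference of the responses was called for Colgalt1 (0.27, limma adjusted p = 0.00521), in all 14 alternatives.

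Genes of matrix turnover had calls both ways as well, where 7.49% of all genes were called higher and 7.44% lower in the GSK3β line. Their counts are likewise not read as a result about the list. Of 15 tested, 3 rose and 3 fell in the GSK3β line, with a median of 0.08. Htra1, a secreted serine protease, rose by 0.42 ± 0.07 (limma adjusted p = 0.000335), and the cathepsins Ctsl (0.29) and Ctsb (0.18) rose. Mmp14, a membrane-bound metalloprotease, fell by 0.33 on the log2 scale, from 30.3 and 31.5 to 23.7 and 25.0, and Mmp2 (-0.28) and the protease inhibitor Serpine2 (-0.18) fell. Of 8 tested genes of interstitial matrix, Fn1, fibronectin, rose by 0.22 and Col5a1 by 0.25, while Thbs1 fell by 0.81 at a mean value of only 2.06. The median of the 8 was -0.01. Col5a1 and Mmp2 lost their calls without untreated or treated GSK3β replicate 1, and Serpine2 without untreated replicate 1. The difference of the responses was called for Fn1 (0.28), Htra1 (0.38), Ctsl (0.25) and Thbs1 (-0.82), of which Fn1 kept the call in all 14 alternatives. For the difference, 3.62% of all genes were called higher and 2.9% lower. In the GSK3α line 0 genes of these lists of receptors, processing, turnover and interstitial matrix were called, with 0, 3, 0 and 0 at an unadjusted p under 0.05 and 0 in each with voom.

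**Figure D3:**
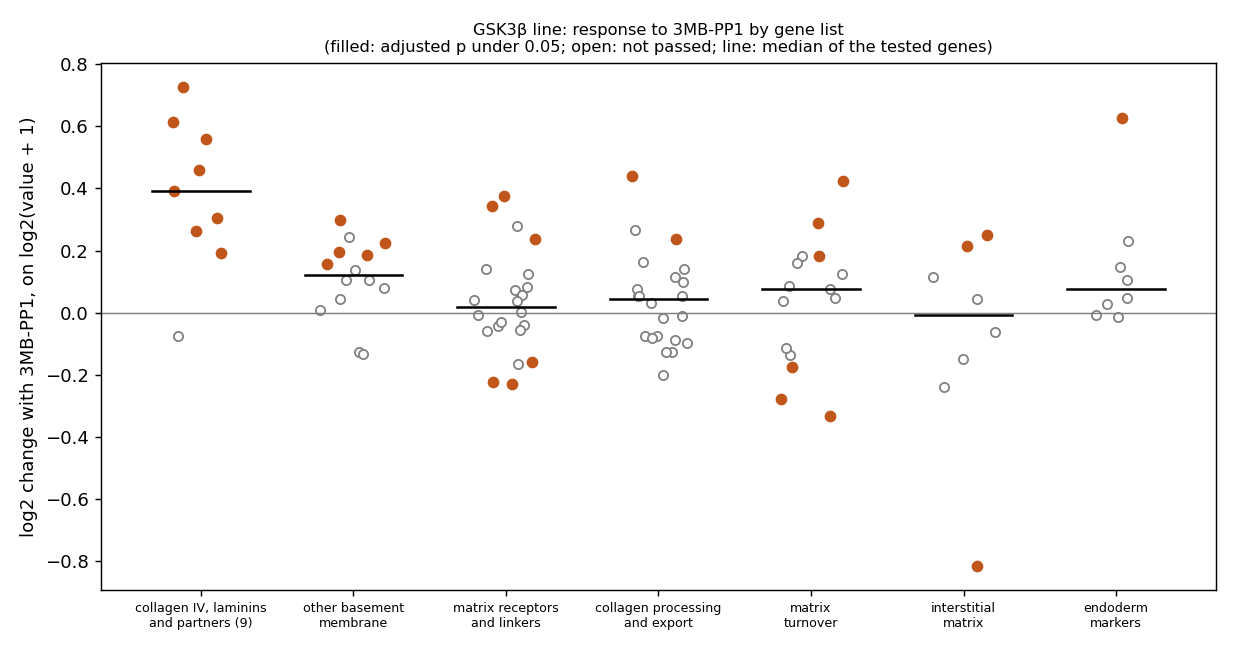
Log2 change with 3MB-PP1 in the GSK3β line for each tested gene of 7 lists, with the median of each list as a line. Filled points passed the adjusted threshold. The 9 genes described have a median of 0.39, the other basement membrane components 0.12, and the remaining lists medians from -0.01 to 0.08.

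Markers of endoderm, the cells known for these proteins, were measured in the same libraries. Of 20 named, 15 had values and 8 were tested. Over all tested genes, 7.49% were called higher in the GSK3β line and 7.44% lower. Counts of calls below are not read as results about the marker lists. Their summed value was 27.5 to 29.3 in untreated and 28.5 to 28.7 in treated GSK3α cells, and 26.3 to 27.7 in untreated and 30.9 to 31.7 in treated GSK3β cells. Of the 8, 1 rose in the GSK3β line, Fst (0.63 ± 0.11, limma adjusted p = 0.000637), the follistatin gene, from 4.50 and 5.71 to 8.98 and 7.81. Most of the rise of the summed value in that line was Fst alone. The defining transcription factors Gata6 (0.385 to 1.06), Sox17 (0.255 to 0.673) and Sox7 (0.595 to 0.833) stayed at or below 1.06 in all 8 libraries. Gata4, at 3.94 to 6.21, had a change of 0.11 in the GSK3β line that did not pass. Foxa2, Thbd, Ttr, Afp and Apoa1 were listed without values. Markers of fibroblasts and mesenchyme had a summed value of 311 to 315 in untreated and 331 to 351 in treated GSK3β cells. Over the GSK3α libraries the sum was 227 to 253. Vim alone made up most of it, at 268 and 259 in untreated and 301 and 282 in treated GSK3β cells. In the GSK3β line 1 of 8, Vim, rose (0.14), a call lost in 6 of 15 alternatives. Markers of trophoblast summed to 79.7 to 81.5 in untreated and 80.4 to 83.0 in treated GSK3β cells, against 66.6 to 70.3 over the GSK3α libraries, and 0 of 8 were called in the GSK3β line, with 2 at an unadjusted p under 0.05 and 0 with voom. Of the 14 embryonic stem cell markers, 4 rose in the GSK3β line, Tfcp2l1 (0.72), Klf4 (0.59), Esrrb (0.22) and Nanog (0.14), and 3 fell, Fgf4 (-0.52), Tdgf1 (-0.24) and Utf1 (-0.20). In the GSK3α line 1 of the 14, Fgf4, was called higher (0.14, limma adjusted p = 0.0497), where 0.265% of all genes were. The difference of the responses was called higher for 4 of the 14 and lower for 1, Fgf4 (-0.66). Over all genes these shares were 3.62% and 2.9%. The part of these markers in the changes of the 9 genes was not tested.

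The genes whose group means were most like those of the collagen IV pair were found by a fixed distance. Group means of log2(value + 1) were centred for each gene, and the root mean square distance over the 4 groups to the mean profile of Col4a1 and Col4a2 was ranked over 10801 genes. The nearest were Tfcp2l1 (0.0181), Tdrp (0.0259), Tmem181a (0.0299), Aspa (0.0305) and Yes1 (0.0387), followed by Klf4 (0.0410), Il6st (0.0497), Aff1 (0.0589), Gm11410 (0.0654) and Csrnp2 (0.0670). The median distance of all genes was 0.270, and Col4a1 and Col4a2 themselves lay 0.0706 from their own mean. Tfcp2l1 and Klf4 encode transcription factors of naive embryonic stem cells, and Il6st is the signalling chain of the LIF receptor. Among the other members, Lamb1 stood at rank 44, Sparc at 98 and Hspg2 at 251. Nid1 (2097), Lamc1 (4265), Serpinh1 (5122) and Lama1 (6140) lay far down. The distance covers 4 group means from 2 libraries each and gives a likeness in these libraries only.

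**Figure D4:**
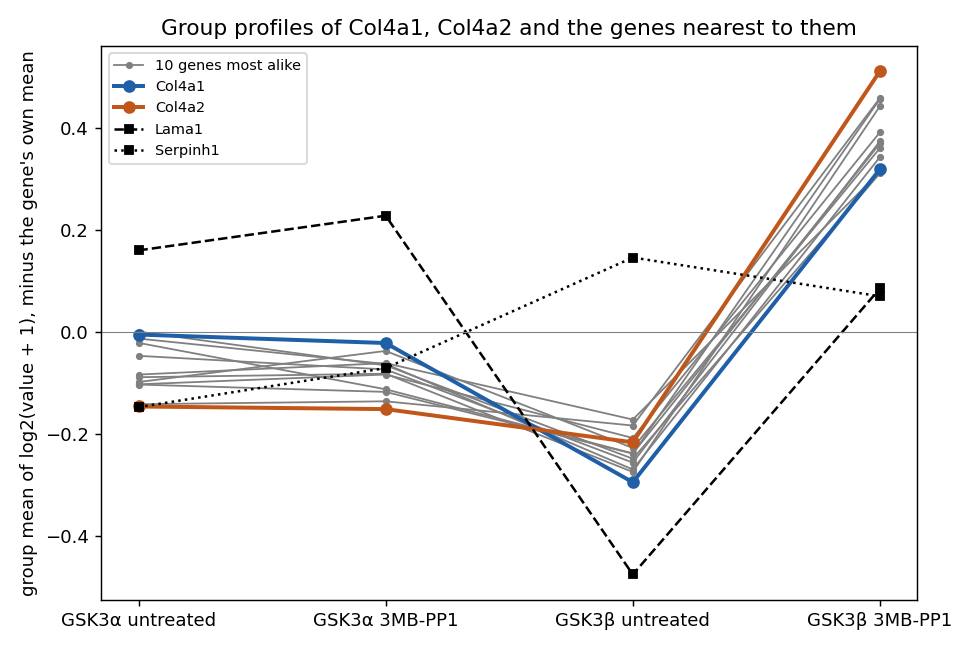
Centred group means of log2(value + 1) over the 4 groups for Col4a1, Col4a2, the 10 nearest genes (grey), Lama1 and Serpinh1. The collagen IV pair and its nearest genes are lowest in untreated and highest in treated GSK3β cells, while Lama1 is lowest in untreated GSK3β cells and highest in treated GSK3α cells, and Serpinh1 is highest in untreated GSK3β cells.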

How the data were processed

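RNA was measured in 8 libraries, 2 in each of 4 groups taken from the labels. The authors used TopHat2 and Partek on mm10, per the submitters' processing notes, with versions, annotation and strand setting not given in the sources used here; libraries were made with a TruSeq RNA kit, per the labels' protocols. The deposited values are a signal: the authors' scaled estimates of gene counts, in which the third quartile is equal in all libraries to within 0.0548%. They are not raw counts, so the count test named first in the design was not used.

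A mean value of 1 was required for testing (13959 genes, with 3529 left out) on log2(value + 1) with limma-trend (limma 3.58.1, R 4.3.3), 1 mean per group and 4 residual degrees of freedom. The threshold was an adjusted p of 0.05, two-sided, over all tested genes in each of 4 comparisons. The added 1 understates changes of low genes. The median SE was 0.0634 within a line and 0.0897 for the difference. The fit was tested on simulated data. Exon lengths are from GENCODE M21 on GRCm38, the mm10 assembly. The genes described and all lists were chosen with earlier results of these data known. Named from each list are the called genes with the 4 largest changes in a comparison and the defining markers, and from the likeness ranking the nearest 10; Dag1, Ctsb, Serpine2, Itgb1, P4hb, Plod1 and Plod3 were added after their values were seen, and 1 gene that the rule names is not reported here. In total 15 alternatives were run.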

Additional observations from a re-analysis of the deposited data

Results flagged for a closer look

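For 8 genes the response to the inhibitor differed between the lines by the term for the difference itself in limma, higher in the GSK3β line in each. The differences on the log2 scale were 0.73 ± 0.10 (SE) for Col4a2, 0.63 ± 0.08 for Col4a1, 0.49 ± 0.05 for Nid1, 0.49 ± 0.08 for Lama1, 0.30 ± 0.07 for Lamb1, 0.26 ± 0.05 for Lamc1, 0.24 ± 0.06 for Sparc and 0.23 ± 0.06 for Hspg2. The genes were chosen with these results known, so the differences are a description.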

How the results depend on the processing

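Each of the 4 comparisons was repeated under 15 alternatives, 14 for the difference: another pseudocount (0.1), no filter or one at 5, median-of-ratios scaling, voom on estimated reads, the replicate block, only the 4 libraries compared (not run for the difference) and each library left out. No change of a called member turned its direction. The number of members called higher was 8 in the GSK3β line and 8 for the difference, and with a library left out the first was 7 to 8 (7 without treated GSK3β replicate 1, with Hspg2 lost) and the latter 5 to 8. It was 5 without treated GSK3α replicate 2 (Lamb1, Hspg2 and Sparc lost) and 5 without treated GSK3β replicate 1 (the same 3 genes). With the replicate block 8 members were called higher in the GSK3β line and 8 for the difference, and no call of a member changed. Deviations of same-numbered libraries from their group means correlated by -0.04 in each line. No shared deviation was thus seen, but this cannot show whether same-numbered libraries were prepared together.

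Over all genes, 2084 were called in the GSK3β line, 864 without its treated replicate 1 and 1181 without its untreated replicate 1. For the difference 911 were called, and 353 to 1339 with a library left out. In the GSK3α line 123 were called, 73 with voom, and 16 to 186 with a library left out. With 2 libraries a group and 1 line a kinase, small changes cannot be resolved, and leaving out 1 library leaves a lone sample whose spread is assumed to be that of the others.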

Other observations

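Cdx2, a transcription factor named among the trophoblast markers, was left out of the tests by its mean value below 1 and was chosen here after its values were seen. It was at 0.195 and 0.321 in the untreated GSK3β libraries and at 2.43 and 3.27 with the inhibitor, and at 0.298 to 0.515 over the 4 GSK3α libraries. The treated GSK3β libraries were above the other 6, at low values and with no test.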
